A study of Mus musculus with 6 samples.

Results

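The miRNAs described here come from 9 precursor genes at the Meg3 side of the imprinted Dlk1-Dio3 domain and inside its noncoding gene Rian: miR-770, miR-673, miR-493, miR-337, miR-540 and miR-665 on the Meg3 side, and miR-341, miR-1188 and miR-370 in Rian. Every array name with 1 of these stems was taken, whichever arm it named and whether or not it was detected. This gave 13 of the 690 miRNA names on the array, measured by 43 probes and 260 spots. 4 names could be tested, miR-337-5p, miR-337-3p, miR-341-3p and miR-370-3p, and 9 could not. A probe is called detected on an array here when the scanner software flagged more than 50% of its spots as well above background.

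MicroRNAs were profiled on 1-colour Agilent arrays in cells sorted from transgenic mice in which smooth muscle actin (SMA) expression is reported by GFP, a reporter that marks contractile cells and is not restricted to a cell lineage. The cells of interest were GFP-high cells, called myofibroblasts by the submitters, from wounds 7 days after injury (samples 3, 4 and 6), and they were compared with GFP-low, fibroblast-like cells of uninjured dermis (samples 1, 2 and 5). Both groups carried the reporter and lacked CD45, a blood cell marker, and CD31, an endothelial marker. Age, sex, strain and the number of animals behind each sample are not given in the sources used here, so p-values measure the spread between 3 preparations a group, which may be partly technical, and tissue and GFP level cannot be told apart.

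The Dlk1-Dio3 domain carries protein-coding genes expressed from the paternal chromosome and long noncoding RNAs, Meg3, Rian and Mirg, expressed with their embedded miRNAs and small nucleolar RNAs from the maternal chromosome. A precursor hairpin is cut into a 5p and a 3p arm, either of which can be loaded into the silencing complex, and the seed, bases 2 to 8 of the loaded arm, directs target choice. In the mouse, miRNAs that lie antisense to Rtl1 are known to repress this retrotransposon-derived gene, which is required in placenta. miR-770 lies within the annotated span of Meg3, the genes of miR-673, miR-493, miR-337, miR-540 and miR-665 lie within the annotated span of Rtl1, and those of miR-341, miR-1188 and miR-370 lie within Rian.

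The hairpin from which both measured arms of miR-337 are cut is printed first, with these arms in capitals, because they held the main difference between the groups. It lies on the plus strand at chr12:109585789-109585885 of GRCm38.p6 (sequences from RefSeq, in which all 13 names matched).
Mir337: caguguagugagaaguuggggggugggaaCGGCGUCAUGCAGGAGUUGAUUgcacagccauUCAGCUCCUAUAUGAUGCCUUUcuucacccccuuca
The mature sequences of the 4 tested names, and of miR-665-3p and miR-540-3p of which 1 probe each stood out among the untested names, follow with the seed in capitals.
mmu-miR-337-5p: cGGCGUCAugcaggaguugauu
mmu-miR-337-3p: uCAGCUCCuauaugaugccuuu
mmu-miR-341-3p: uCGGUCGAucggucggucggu
mmu-miR-370-3p: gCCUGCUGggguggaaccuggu
mmu-miR-665-3p: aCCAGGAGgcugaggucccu
mmu-miR-540-3p: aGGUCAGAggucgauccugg
In the same build and on the same strand, miR-337-5p lies at chr12:109585818-109585839, miR-337-3p at chr12:109585850-109585871, miR-341-3p at chr12:109611556-109611576 and miR-370-3p at chr12:109618305-109618326. miR-540-3p lies at chr12:109586122-109586141 and miR-665-3p at chr12:109586368-109586387. The 13 names have 13 different seeds. None of these seeds recurs in another name on the array, so the names form no seed family, and the arms of 1 hairpin do not share targets through the seed. miR-341-3p is largely a CGGU repeat, with 4 copies of that word. The mature forms of the tested names held 40.9% to 68.2% G and C (median 60.6%) and those of the untested names 56.5% to 72.7% (median 61.9%).

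Sorted cells carried the miRNAs of mesenchymal cells. Of 10 names of the fibroblast and myofibroblast list (miR-199, miR-214, miR-143, miR-145a and miR-21a) 9 were detected on some wound array and 8 on some skin array. 0 of 8 skeletal and cardiac muscle names and 0 of 5 neural names were detected on any array. Of 12 keratinocyte names 2 were detected, miR-205-5p and miR-203-3p, on all 3 skin arrays and on 0 wound arrays. The summed keratinocyte level was 0.00513 to 0.00920 on the wound arrays and 0.120 to 0.204 on the skin arrays, in units of the scaling percentile. Its part in the results below was not tested. Of 7 blood cell names 1, miR-451a, was detected, on skin arrays only; the list's summed level was 0.0272 to 0.0356 on the wound arrays and 0.0160 to 0.0321 on the skin arrays. Endothelial miR-126-3p was detected on every array. In sorted populations, fewer cells of a type and less of the RNA per cell cannot be told apart.

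miR-127-3p, the miRNA named in the series title, served as a check of the labels. Its scaled log2 level was 0.19, 0.17 and 0.08 in the wound samples, against -2.94, -3.12 and -3.20 in the skin samples.

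The comparison asked which of these miRNAs differed between the GFP-high wound cells and the GFP-low skin cells. Both arms of miR-337 were 7- to 9-fold higher in the wound cells in the main setting. Their log2 differences were smaller, 2.27 to 2.72, under 4 other scalings. With another background correction (normexp) they were 1.46 for the 3p arm and 1.52 for the 5p arm and did not pass the test. miR-341-3p passed the detection rule on the wound arrays only, with dim signals left on the skin arrays. miR-370-3p was 2.03-fold higher in the main setting but passed the test under none of 4 other scalings. In limma, with Benjamini-Hochberg adjustment over the 222 tested miRNAs at 0.05, 4 of the 4 tested names were higher. Of all tested miRNAs 64.9% were called, 44.1% higher and 20.7% lower. miR-341-3p passed the filter on dim signals only through the wound arrays. This favours a higher wound value without fixing it, so the call of this name is not read as support. Of the 156 miRNAs detected on every array 37.2% were called higher, and 3 of the 3 such names from the Meg3 side and Rian were. With 3 names this count says little beside that share. The median difference of the 4 names was 2.08 on the log2 scale, and 2.17 with miR-341-3p at its bound, beside 0.38 over all tested miRNAs.

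Levels are given on a log2 scale relative to a scaling value of each array, the 75th percentile of the probes detected on every array, and dim values were raised to a common floor of -5.30. The level of mmu-miR-337-5p, averaged over its 2 probes, was -2.16, -2.0 and -2.24 in wound samples 3, 4 and 6, against -5.22, -5.30 and -5.23 in skin samples 1, 2 and 5. The 3 wound values lay close together and far above every skin value, and the skin values lay at or just above the floor. The means were -2.13 ± 0.12 in wound cells and -5.25 ± 0.05 in skin cells (SD, n = 3 each), a difference of 3.12 (SE 0.07, 8.69-fold, limma adjusted p = 3.5e-06). It was the 11th largest increase among the 222 tested miRNAs.

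mmu-miR-337-3p, the other arm, had levels of -2.28, -2.42 and -2.44 in wound samples 3, 4 and 6, against -5.09, -5.30 and -5.30 in skin samples 1, 2 and 5. The groups did not overlap, which held for 69.8% of all tested miRNAs in either direction and for 48.6% in this one. Its means were -2.38 ± 0.09 in wound cells and -5.23 ± 0.12 in skin cells (SD, n = 3 each), a difference of 2.85 (SE 0.08, 7.23-fold, limma adjusted p = 5.0e-06). An exact two-sided permutation test over the 6 arrays gave p = 0.1 for each of the 4 tested names, the smallest value that 3 against 3 arrays allow.

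**Figure D1:**
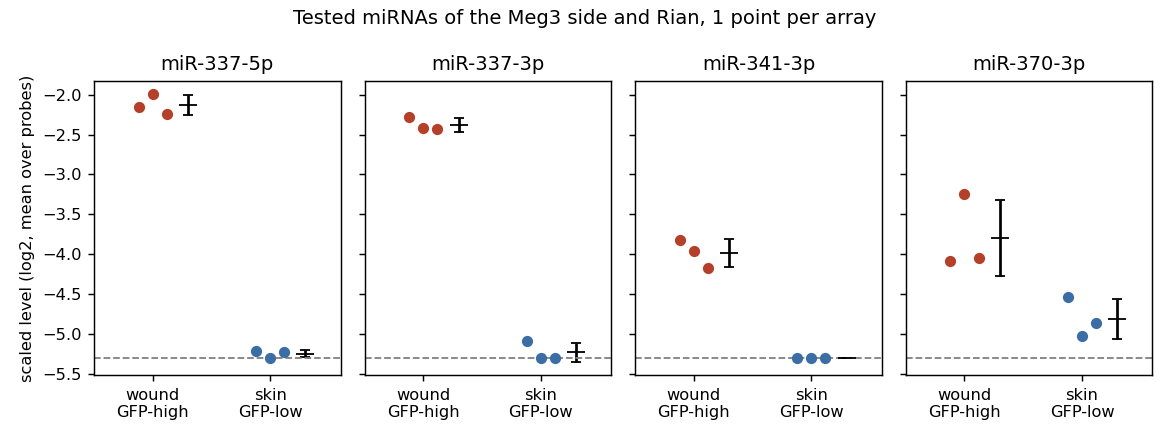
Scaled log2 level of the 4 tested miRNAs on each array (y axis, mean over probes), with GFP-high wound cells in red left of GFP-low skin cells in blue; black marks are means with SD (n = 3) and the dashed line is the floor at -5.30. Both miR-337 arms sit above -2.5 on every wound array and near the floor on the skin arrays, whereas the groups of miR-370-3p lie closer together.

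The skin levels of miR-337 were read from its brightest probes, since the average over probes fell at the floor in 2 of 3 skin samples for the 3p arm and in 1 of 3 for the 5p arm. The brightest 5p probe (A_54_P2533) was detected on all 6 arrays. Its unscaled processed signal was 256, 394 and 349 intensity units in wound samples 3, 4 and 6, against 58.1, 43.1 and 70.4 in skin samples 1, 2 and 5. The brightest 3p probe (A_54_P4387), also detected throughout, gave 284, 353 and 391 units in the wound samples, against 74.6, 48.1 and 71.5 in the skin samples. The lowest wound signal was thus several times the highest skin signal for both arms before any scaling. All unscaled wound signals lay above all skin signals for 31.1% of the tested miRNAs.

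After scaling and without the floor, the fold of these probes was 8.74 for the 5p arm and 7.99 for the 3p arm. The second 5p probe (A_54_P2532) gave 10.2-fold, and the remaining 3p probes (A_54_P2538 and A_54_P2537) 8.58-fold and 7.20-fold; A_54_P2532 and A_54_P2537 were detected on no skin array and A_54_P2538 on 2 of 3. All 5 probes of the miR-337 hairpin gave higher signals on every wound array than on any skin array, but sizes were measured above background in both groups throughout only for the brightest probe of each arm. Repeat spots of the brightest probes varied by 6.64% to 9.36% (coefficient of variation) on the wound arrays and 9.90% to 20.1% on the skin arrays for the 5p arm. For the 3p arm this spread was 2.52% to 16.5% on the wound arrays and 7.92% to 45.8% on the skin arrays.

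Whether the arms of miR-337 changed by the same amount was asked through the log2 ratio of 5p to 3p on each array. From the brightest probes that ratio changed by 0.13 between wound and skin cells (exact two-sided permutation test, p = 0.5, n = 3 each). From the floored means over probes it changed by 0.26 (p = 0.1, exact permutation test, the smallest p possible), with SDs of 0.16 among wound samples and 0.10 among skin samples. In the floored means, 2 of 3 skin values of the 3p arm and 1 of 3 of the 5p arm lay at the floor, and with a floor 4 times as low the change was 0.17. No difference between the arms larger than the spread between preparations was measured with the brightest probes.

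mmu-miR-341-3p is the first of the Rian miRNAs in gene order. Its unscaled signal, averaged over 2 probes, was 55.4, 70.2 and 63.2 units in wound samples 3, 4 and 6, against 26.1, 16.2 and 7.55 in skin samples 1, 2 and 5. All wound signals lay above all skin signals, and on the skin arrays neither probe was well above background. In the main scaling its wound level of -3.99 ± 0.17 (SD, n = 3) was at least 2.81-fold above the dimmest detected signals of each skin array. This bound was computed in the main scaling only and need not hold under another. On the floored values, where the skin samples show no spread, limma gave an adjusted p of 1.5e-04. That p-value is no support, since the name entered the test only through the wound arrays. The floored difference was 1.32 and, with no skin array passing the detection rule, depended on the floor: it was 2.48 with a floor 4 times as low and 0 with one 4 times as high. Under the 4 other scalings the floored difference was 0.84 to 1.03. On the brighter probe, A_54_P2565, 10 of 10 spots were flagged well above background on each wound array and 0 of 10 on each skin array. That probe still read 29.8, 18.2 and 11.2 units in skin samples 1, 2 and 5. On the other probe, A_54_P2564, 2 of 10 spots were flagged on skin sample 1 and 0 of 10 on skin samples 2 and 5. The authors' deposited table, matched by values, listed the name above its column's lowest value on skin sample 1. A low skin level is thus not excluded.

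mmu-miR-370-3p, reported in human hepatoma cells to repress the fatty acid oxidation enzyme CPT1A, behaved differently before and after scaling. Its unscaled signal was 46.1, 115 and 68.8 units in wound samples 3, 4 and 6, against 63.8, 38.0 and 60.6 in skin samples 1, 2 and 5. These groups overlapped: wound sample 3 lay below 2 of the 3 skin samples. The arrays' scaling percentiles were 786, 1095 and 1136 units in the wound samples, against 1487, 1244 and 1772 in the skin samples.

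After division by them the log2 levels of miR-370-3p were -4.09, -3.25 and -4.05 in the wound samples, against -4.54, -5.03 and -4.87 in the skin samples, and no longer overlapped. The means were -3.80 ± 0.47 in wound cells and -4.81 ± 0.25 in skin cells (SD, n = 3 each), a difference of 1.02 (SE 0.28, 95% interval 0.29 to 1.74, limma adjusted p = 0.026). Wound sample 4 was the highest. The call was lost without skin sample 2 (0.91, limma adjusted p = 0.079, 42.3% of all tested miRNAs called higher) and without skin sample 5 (0.99, adjusted p = 0.079, 38.7% called higher). It was kept without skin sample 1 (42.8% called higher) or wound samples 3, 4 or 6 (41.0%, 41.4% and 42.8%).

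**Figure D2:**
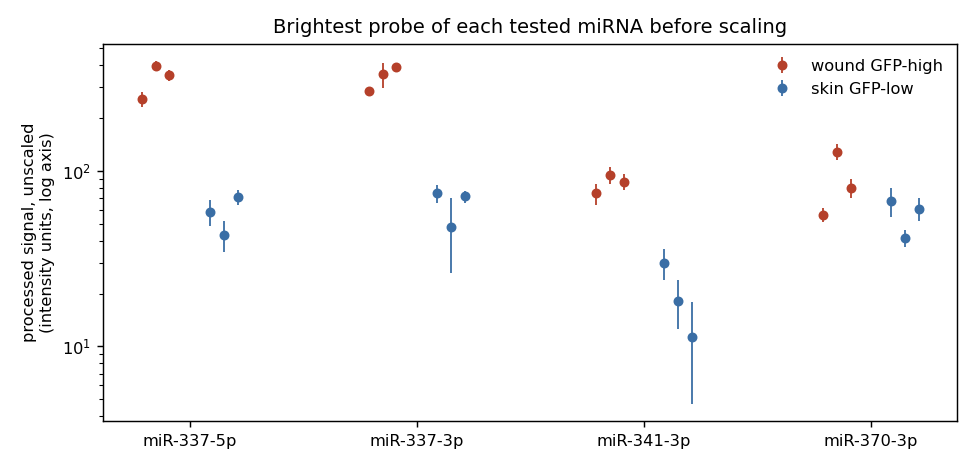
Unscaled processed signal of the brightest probe of each tested miRNA (y axis, intensity units, log axis), 1 point per array with the SD over repeat spots, GFP-high wound cells in red and GFP-low skin cells in blue. The miR-337 probes separate the groups before any scaling, at 256 to 394 units for the 5p arm in the wound samples and 43.1 to 70.4 in the skin samples, while the miR-370-3p signals overlap.

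The scaling moved all miRNAs together, and the differences were therefore also read against the median difference. Over the tested miRNAs as a whole it was 0.38 in the main setting. It moved by -0.57 when the percentile was taken over every probe, by -0.38 when arrays were scaled by their medians, by -0.38 after quantile normalization and by -0.46 without scaling. The split of calls in the main setting was 98 higher and 46 lower. It became 52 and 76, 66 and 66, 70 and 67, and 54 and 54 under these 4 alternatives, in that order, so that 23.4%, 29.7%, 31.5% and 24.3% of all tested miRNAs were called higher. Under each of the 5 scalings 3 or 4 of the 4 names were called higher and 0 lower. Each of these counts includes miR-341-3p, whose call is no support because it entered the test only through the wound arrays. Under the 4 alternatives the other calls were those of the 2 arms of miR-337, which come from 1 hairpin. The name that lost its call was miR-370-3p, at 0.33, 0.61, 0.29 and 0.44 under the alternatives in the same order (adjusted p = 0.352, 0.101, 0.440 and 0.435).

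Set against that median, miR-337-5p stood 2.58 to 2.74 higher over the 5 scalings and miR-337-3p 2.37 to 2.49. miR-370-3p stood 0.29 to 0.64 higher. miR-341-3p was not detected on any skin array, so its size relative to the median is not given. With normexp background correction, run on median spot signals with an offset of 50, the median difference was 1.03 and 7.21% were called higher. None of the 4 names passed there in limma: miR-337-5p differed by 1.52 (adjusted p = 0.071), miR-337-3p by 1.46 (0.087), miR-341-3p by 1.09 (0.173) and miR-370-3p by 1.08 (0.173). 2 of them were below an unadjusted p of 0.05.

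**Figure D3:**
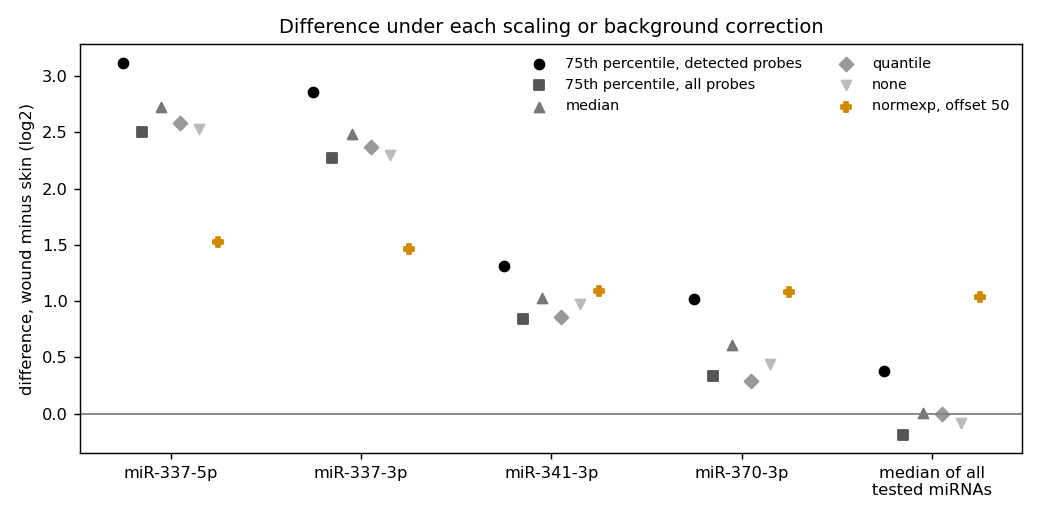
Log2 difference, wound minus skin (y axis), of the 4 tested miRNAs and of the median over all 222 tested miRNAs, under 5 ways of scaling the arrays and with normexp background correction. The miR-337 arms stay between 2.27 and 3.12 under the 5 scalings and fall to 1.46 and 1.52 with normexp, while miR-370-3p lies between 0.29 and 1.08; the values of miR-341-3p depend on the floor.

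A ratio of probes on the same array does not change with a scaling factor, and this was used, after the data had been seen, to compare how far the members moved. Of 6 ratios among the 4 tested names, taken from the brightest probes, the log2 ratio of miR-337-5p to miR-370-3p was 1.96 higher in the wound cells, with SDs of 0.31 among wound samples and 0.21 among skin samples. The ratio of miR-337-3p to miR-370-3p was 1.83 higher (SD 0.49 in wound, 0.04 in skin). Both ratios separated the groups completely, and each had p = 0.1 in an exact two-sided permutation test (0.2 after Benjamini-Hochberg adjustment over 6 ratios), the smallest p that the design allows. On every wound array the miR-337 signals thus stood higher over that of miR-370-3p than on any skin array, and the test cannot reach 0.05. The ratio of miR-341-3p to miR-370-3p, 1.62 higher (p = 0.1, exact permutation test), also separated the groups, but miR-341-3p was detected on no skin array. None of the ratios without miR-370-3p separated the groups.

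The arrays lay in 2 rows of 1 slide, with 1 wound and 2 skin arrays in the first row and 2 wound and 1 skin arrays in the second. Within the rows the difference of miR-337-5p was 3.1 and 3.11, that of miR-337-3p 2.92 and 2.87, that of miR-341-3p 1.47 and 1.24, and that of miR-370-3p 0.69 and 1.22. With the row as a block miR-370-3p did not pass (0.96, limma adjusted p = 0.065), and both miR-337 arms did, beside 43.7% of all tested miRNAs called higher. miR-341-3p also passed there, but its call is no support for the reason given above. With a floor 4 times as high 2 of the 4 names, both miR-337 arms, were called higher, beside 19.8%, with differences of 1.17 for miR-337-5p and 0.93 for miR-337-3p.

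The miRNAs whose levels over the 6 arrays were most like those of each member, by root-mean-square distance between log2 profiles centred on their own means, differed between miR-337 and miR-370-3p. For miR-337-5p the nearest of the tested miRNAs were miR-329-3p (distance 0.08), miR-503-5p (0.09), miR-127-3p (0.11), miR-434-3p (0.11) and miR-299b-5p (0.12), against a median distance of 1.41 over all tested miRNAs. All of these but the X-linked miR-503-5p belong to the Dlk1-Dio3 domain. For miR-337-3p they were miR-299b-5p (0.11), miR-434-3p (0.12), miR-495-3p (0.13), miR-329-3p (0.14) and miR-434-5p (0.14), all from the domain, against a median of 1.29. On every skin array miR-503-5p, miR-495-3p and miR-434-5p lay at the floor, as did some skin values of both miR-337 arms. These distances thus depend partly on the floor and on the size of the group difference.

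For miR-370-3p the nearest profiles were those of miR-1904 (0.09), miR-1982-5p (0.14), miR-2145_v16.0 (0.16), miR-2137 (0.19) and miR-680 (0.19), none of them from the domain, against a median of 0.60. Their differences were 0.95, 0.93, 0.90, 1.17 and 1.27 on the log2 scale. These distances describe 6 arrays in 2 groups and carry no test.

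In gene order the genes of both regions stand among other miRNAs of the domain that were higher in the wound cells. Of 64 other domain names on the array 36 were tested, of which 32 were higher and 0 lower, with a median difference of 2.29. A further array name, from a gene within Meg3, is in neither set and was not tested. Of all tested miRNAs 44.1% were called higher. 24 of the 36 were undetected on at least 1 skin array, so the filter favoured this count and the median depends on the floor. Of the 12 detected on every array 10 were higher, beside 37.2% of all miRNAs detected on every array. The series title names the domain, so these counts are no independent evidence of its direction. Mir136, the gene before Mir341, had a difference of 1.61 for miR-136-5p (SE 0.22, limma adjusted p = 0.0019, detected on 2 of 3 skin arrays). miR-136-3p, detected on no skin array, was at least 2.40-fold higher in the main scaling (limma adjusted p = 3.3e-04 on the floored values). Both names passed the filter through the wound arrays only. miR-882, from the gene after Mir370, was detected on no array.

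**Figure D4:**
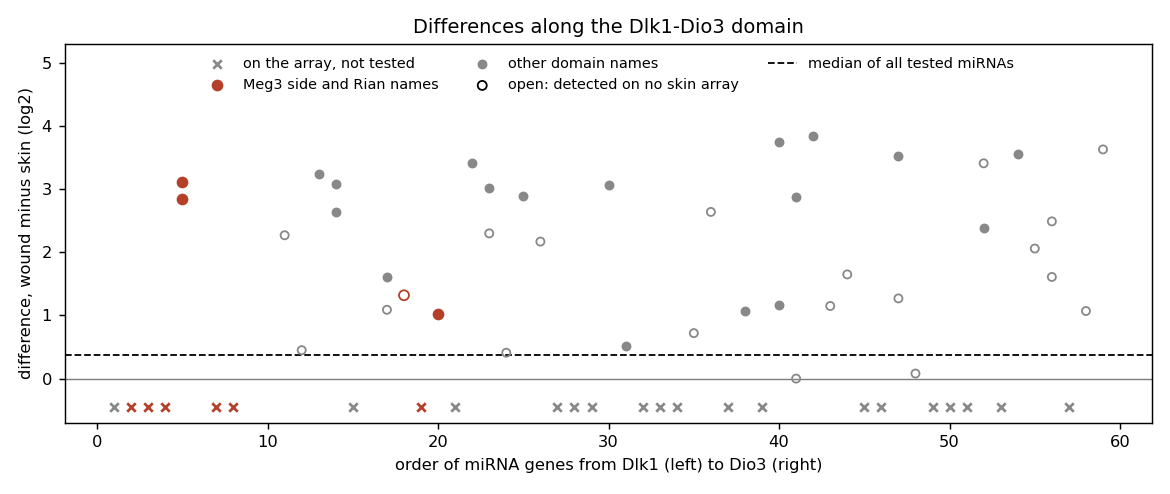
Log2 difference, wound minus skin (y axis), of the tested miRNAs of the Dlk1-Dio3 domain in gene order from Dlk1 to Dio3 (x axis), with names of the Meg3 side and Rian in red, other names in grey, names detected on no skin array as open circles, whose value depends on the floor, and genes whose array names were not tested as crosses. The dashed line is the median of all tested miRNAs, 0.38; the miR-337 arms lie at 3.12 and 2.85 and miR-370-3p at 1.02, while miR-341-3p is an open circle.

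The other 9 names could not be tested, because none had a probe detected on all 3 wound or all 3 skin arrays. They were miR-770-5p and miR-770-3p, miR-673-5p and miR-673-3p, miR-493-3p, miR-540-5p and miR-540-3p, miR-665-3p and miR-1188-5p. On the wound arrays 4 of their 540 spots were flagged well above background, and on the skin arrays 1 of 540. A negative or near-zero signal there is a bound and not a measured absence: negative control spots had SDs of 5.26 to 7.55 units, and the 34 probes ranged from -12.6 to 35.6 units.

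Most of these probes showed no level above background in either group. Averaged over its probes, miR-770-5p had -5.19, -6.88 and -8.72 units in wound samples 3, 4 and 6, against -4.88, -8.36 and -8.98 in skin samples 1, 2 and 5, and the groups overlapped. The gene of miR-1188-5p, Mir1188, lies 226 bases after Mir341 and 6316 bases before Mir370 in GRCm38.p6. miR-1188-5p had -1.97, 2.86 and -0.61 units in the wound samples, against 0.63, 0.60 and -0.81 in the skin samples. It was thus detected on no array, between 2 Rian miRNAs that were detected on the wound arrays. miR-493-3p likewise had -3.17, -2.35 and -3.33 units in wound samples, against -6.52, -4.49 and -2.74 in skin samples.

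For miR-673, the Meg3-side gene after Mir770, the groups overlapped for the 3p arm only. Signals were all near or below 0, so this is not read as a difference between the arms. Among the 1431 single probes of all untested names, 10.4% had all wound signals above all skin signals. miR-673-5p had -2.41, -2.56 and -0.54 units in wound samples 3, 4 and 6, against -4.54, -4.16 and -4.98 in skin samples 1, 2 and 5. miR-673-3p had -2.03, -0.79 and -0.34 units in the wound samples, against 0.14, -2.33 and 3.56 in the skin samples, and overlapped. miR-770-3p did not overlap, at -4.62, -1.29 and -1.88 units in the wound samples, against -6.41, -8.27 and -4.81 in the skin samples. miR-540-5p, at 3.97, 2.81 and 1.65 units in the wound samples, against 2.02, 0.58 and 2.10 in the skin samples, overlapped. Apart from 1 spot of miR-673-5p on skin sample 1, no spot of these 4 names was flagged well above background.

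miR-540 and miR-665 follow miR-337 within a short stretch, with 194 bases between Mir337 and Mir540 and 167 between Mir540 and Mir665. One probe of miR-665-3p (A_54_P2877) gave 20.6, 35.6 and 27.9 units in wound samples 3, 4 and 6, against -1.01, -3.31 and -0.20 in skin samples 1, 2 and 5. On wound sample 4 it was well above background with 4 of 5 spots, while the remaining 3 probes of miR-665-3p lay between -8.05 and -2.80 units on the wound arrays. One probe of miR-540-3p (A_54_P2802) gave 16.1, 21.2 and 20.1 units in the wound samples, against -3.68, -1.78 and -2.34 in the skin samples, and 0 of its spots were flagged. These probes were picked for their values and carry no test.

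All wound signals lay above all skin signals in 7 of the 34 probes and below in 1, beside 10.4% above and 11.04% below among the 1431 probes of all untested names. Of these 1431 probes 1.4% also had a wound mean above 17.5 units, 3 SDs of the negative controls, as did 1 probe of miR-665-3p and 1 of miR-540-3p. With its columns matched to the arrays by their values, since its column numbers do not follow the array titles, the authors' deposited table listed miR-665-3p above its column's lowest value for all 3 wound arrays and for no skin array, and miR-540-3p for 2 wound arrays and no skin array. It listed the other 7 untested names at the lowest value on every array. That table derives from the same scans and adds no independent measurement.

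**Figure D5:**
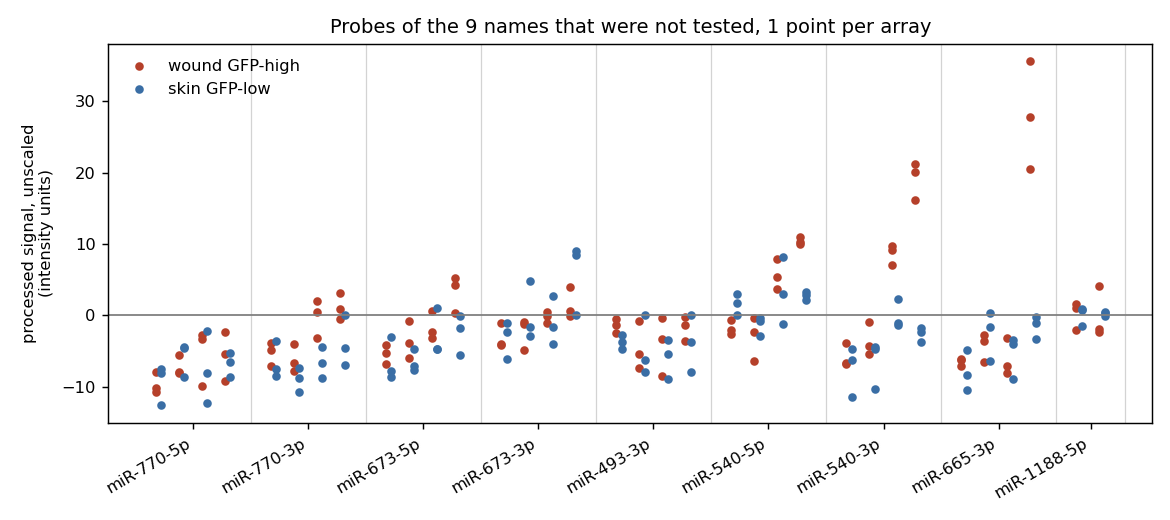
Unscaled processed signal (y axis, intensity units) of the 34 probes of the 9 untested names, 1 column per probe and 1 point per array, GFP-high wound cells in red left of GFP-low skin cells in blue. Most probes scatter around 0 in both groups; 1 probe of miR-665-3p (20.6 to 35.6 units) and 1 of miR-540-3p (16.1 to 21.2 units) stand out on the wound arrays.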

How the data were processed

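Total RNA was labelled with Cy3, per the labels, and read with Agilent Feature Extraction 10.7.3.1, per the file headers. The deposited scanner files hold spot intensity, not normalized between arrays, and flags. The series description names Genespring 14.5. A log2 table was also deposited by the authors, with steps that are not otherwise given in the sources used here. Its columns match the log2 total signals of the arrays but carry other numbers than the array titles, so it serves only as an alternative.

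Processed signals were averaged over spots without outlier flags, scaled to the 75th percentile of the probes detected on all 6 arrays (over 50% of spots flagged well above background), averaged over the probes of a miRNA, raised to a floor of 0.0253 (-5.30 in log2; the median over arrays of the lowest such signal) and taken to log2. A miRNA was tested when a probe was detected on all 3 wound or all 3 skin arrays: 222 of 690 names. Control spots were left out and 0 spots were saturated. Scaling percentiles were 786 to 1772 units over a local background of 49.0 to 55.5. limma 3.58.1 (R 4.3.3) compared the groups, two-sided; its code was tested on simulated data. For a name not well above background on any skin array, the fold is a bound: the wound mean against, per skin array, the dimmest detected signal or its own, whichever was higher. Bounds were computed in the main scaling only. Named are all 13 names, the 5 nearest profiles of each name well above background on all arrays, domain genes next to a tested one, and miR-127-3p. Members and lists were chosen with earlier results of these data known. Alternatives covered scaling, background correction, signal, probe summary, floor, filter, variance model, slide row, left-out arrays and the authors' table.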

Additional observations from a re-analysis of the deposited data

Results flagged for a closer look

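Signal above the skin level appeared in 2 probes of names outside the comparison. The probe A_54_P2877 of miR-665-3p averaged 28.0 units on the wound arrays and -1.51 on the skin arrays, and the probe A_54_P2802 of miR-540-3p averaged 19.2 and -2.60 units in wound and skin. Both exceeded, as a mean over the wound arrays, 3 SDs of the negative controls (17.5 units), a limit set after the data were seen. Of the 1431 probes of all untested names 1.4% did so with groups that did not overlap.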

How the results depend on the processing

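The calls of both miR-337 arms kept their direction and their side of the threshold under 20 of 22 alternatives, that of miR-341-3p under 18 of 21 and that of miR-370-3p under 10 of 22. The filter let miR-341-3p in only through the wound arrays, so its tally is no support. Causes were not tested unless named. With normexp 23 of 222 miRNAs were called (55 at an unadjusted p under 0.05), 0 of the 4 members and 14 of the other domain names; the members' median was 1.28, the arms of miR-337 differed by 0.060, and miR-337-3p (1.46), miR-337-5p (1.52), miR-341-3p (1.09) and miR-370-3p (1.08) did not pass. With a floor 4 times as high, which leaves less range below the signals, 78 miRNAs, 2 members and 20 other domain names were called; the members' median was 0.47, miR-337-3p differed by 0.93 and miR-337-5p by 1.17, miR-341-3p lay at the floor throughout (0) and miR-370-3p differed by 0.018. The authors' table, read by its column numbers, mixes the groups of the array titles: 0 miRNAs were called in limma (1 at an unadjusted p under 0.05), 0 members and 0 other domain names, with a members' median of -0.63, an arm difference of -0.36, and -0.45, -0.81, -0.94 and -0.12 for miR-337-3p, miR-337-5p, miR-341-3p and miR-370-3p. With its columns matched to the arrays by values, added after the data were seen, the members' median was 2.93 and miR-370-3p did not pass (0.57). miR-370-3p also did not pass at 0.33, 0.61, 0.29 and 0.44 with the percentile of all probes, the median, quantile normalization and no scaling, where the members' median was 1.56, 1.76, 1.62 and 1.64, nor without a filter (1.02) or with the slide row as a block (0.96). The members' median was 3.04 with total signals, 2.37 with the brightest probe, 2.74 with a floor 4 times as low and 2.85 when only miRNAs detected on every array were tested (10 other domain names called). The arms differed by 0.13 with the brightest probe. miR-341-3p, not detected on any skin array, differed by 2.93 with total signals, 2.48 with the lower floor, 1.75 with the brightest probe and 7.15 in the authors' deposited table matched by values, against 1.32 in the main setting. The 7.15 is not a measured size, since that table lists the name at its column's lowest value on skin samples 2 (-11.97) and 5 (-12.53). Leaving out each array gave 3 to 4 members and 32 other domain names called, a members' median of 2.02 to 2.14, 2.80 to 2.93 for miR-337-3p, 3.05 to 3.17 for miR-337-5p, 1.24 to 1.41 for miR-341-3p, 0.75 to 1.17 for miR-370-3p and an arm difference of 0.18 to 0.33. No paired analysis was possible because the sample numbers in the titles are all different. Signal over background limits every skin value near the floor and all 9 untested names.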
